A study of Mus musculus with 4 samples.

Results

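Metallothioneins 1 and 2 (Mt1 and Mt2), the zinc exporter Slc30a1 and the transcription factor Mtf1 were followed across the cell types of the mouse renal cortex. These 4 of the 32285 genes in the files were taken by name. The set was chosen by the level of Mt1, which earlier results of these data put among the genes lower in S1/S2 cells of aged Tfeb fl/fl mice, and the others were added because they belong to the same zinc-responsive system. The level of Mt1 in S1/S2 cells with age is therefore given as a description, and the question asked of the other cell types is whether the lower level of the aged libraries was seen there too.

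Each of 4 conditions was measured as 1 single-cell library, in which unique molecular identifiers (UMIs) count 3′ ends of RNA. Each library came from renal cortex of 2 or 3 male mice pooled before digestion. Young mice were 6 weeks old and aged mice 24 months, and at each age there were Tfeb fl/fl KAP mice, here KAP, and their Tfeb fl/fl controls. Lists of 4 values give young controls, young KAP, aged controls and aged KAP. All 4 groups carried the floxed Tfeb alleles. In KAP mice, Cre was driven by the promoter of the kidney androgen-regulated protein gene, which is used in males to delete Tfeb in proximal tubular epithelial cells, in the study's staining the S3 segment. With 1 library a condition there was no test across mice, so that every interval printed covers the counting error of UMIs or cells and not the differences between animals, dissections or library preparations.

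After filters and removal of doublets 10045, 7895, 5704 and 6547 cells were kept, with a median of 12161, 12353, 14760 and 11810 UMIs per cell. The deposited counts had been corrected for background RNA, and 2.90, 12.5, 9.41 and 12.9% of the entries of the files stood at an explicit 0 that this correction had left. Clusters were named from marker genes as 17 classes, each called by its likeness ("S1/S2-like"), and 13 of them had at least 20 cells in every library and were compared. The summed level of the 7 S1/S2 markers was 8152, 8553, 7888 and 8012 CPM (counts scaled to a common class total of 1e6) in S1/S2-like cells, against medians of 65.9, 70.3, 140 and 65.3 CPM in the 11 classes outside the proximal tubule. In S3-like cells the same S1/S2 markers still summed to 5746, 6380, 6286 and 6245 CPM. The 7 S3 markers summed to 1562, 1477, 1325 and 1814 CPM there and to 267, 214, 403 and 488 CPM in S1/S2-like cells. The 2 proximal classes thus differed by degree, and S3-like cells need not all be of the S3 segment. Between 5.03 and 6.72% of the kept cells stayed without a name. Pairs of libraries shared between 27 and 57 barcodes. Tfeb itself was at 6.65, 5.05, 5.46 and 2.60 CPM in S3-like cells and at 7.91, 8.16, 7.52 and 5.19 CPM in S1/S2-like cells, and the 3′ ends that are counted need not lie in the deleted exons, so that these levels are no check of the deletion.

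Metallothioneins are small cysteine-rich proteins of the cytosol that bind zinc, copper and cadmium. MTF1 is a zinc finger protein that senses free zinc and binds metal response elements in the promoters of Mt1, Mt2 and Slc30a1. Slc30a1, also called ZnT1, carries zinc out of the cell at the plasma membrane, so that the same sensor governs both the storage and the export of the metal. Both metallothioneins are also known to respond to glucocorticoids and to oxidative stress, and in the kidney they are best known for holding cadmium in the proximal tubule.

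By the RefSeq annotation (GRCm38.p6), Mt2 (gene 17750) lies at chr8:94172618-94173567 and Mt1 (gene 17748) at chr8:94178883-94180327, both on the plus strand with 5315 bases between them. Slc30a1 (gene 22782) lies at chr1:191906697-191913248 and Mtf1 (gene 17764) at chr4:124802549-124849800. The core letters of the metal response element, TGCACNC or TGCGCNC, were searched on both strands of the 250 bases before each RefSeq transcript start. Mt2 held 3 matches, Mt1 1, Slc30a1 1 and Mtf1 0. Of 32536 such windows of RefSeq genes, 21.5% held at least 1 match and 1.28% held 3 or more. The sequences are shown because they carry the letters that the members share, which are in capitals. They are the whole window of Mt2 (chr8:94172368-94172617) and the 30 bases around the match of Mt1 (chr8:94179055-94179084) and of Slc30a1 (chr1:191906727-191906756), each read 5′ to 3′ on the plus strand.
Mt2: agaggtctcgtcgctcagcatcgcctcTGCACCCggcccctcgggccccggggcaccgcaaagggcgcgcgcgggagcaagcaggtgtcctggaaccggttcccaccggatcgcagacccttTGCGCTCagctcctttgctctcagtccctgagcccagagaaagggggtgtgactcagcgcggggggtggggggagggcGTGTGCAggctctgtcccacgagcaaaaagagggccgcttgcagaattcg
Mt1: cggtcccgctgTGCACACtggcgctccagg
Slc30a1: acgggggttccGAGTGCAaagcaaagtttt
The windows of Mt1 and Slc30a1 were counted from the RefSeq transcript starts at 94179089 and 191906781, which lie inside the gene records given above, so that the printed stretches do too. The match of Mt1 lay 23 to 17 bases before that start, and 2 more ended within the first 50 bases after it. In Mt2 and in Slc30a1 1 more each ended within the 50 bases after the start. The counts of matches above hold for the 250 bases before the start only. The 3 matches of Mt2 lay 223 to 217, 128 to 122 and 50 to 44 bases before the start, the last of them on the minus strand. The match of Slc30a1 lay 43 to 37 bases before its start, on the minus strand. The core of the antioxidant response element, TGACNNNGC, was found 1 time each in the windows of Mt2 and Slc30a1 and in 10.2% of all windows. The E-box letters CACGTG, which TFEB is known to bind, were in 6.04% of all windows and in 0 of the 4.

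Mt1 was a gene of the distal nephron in all 4 libraries. In distal convoluted tubule-like cells, which take up sodium chloride under the control of aldosterone, it stood at 2153, 2689, 2980 and 2860 CPM. In thick ascending limb-like cells, which dilute the urine, it stood at 1862, 2202, 2653 and 3006 CPM. Connecting tubule-like cells, the next segment downstream, held 1282, 1449, 1448 and 1094 CPM. These 3 classes made up 38.1, 32.8, 26.8 and 31.4% of the kept cells and held 77.8, 77.6, 76.5 and 80.0% of the Mt1 UMIs. One of the first 2 was the highest class in each library, and S3-like cells were the lowest in each.

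Mt1 in the proximal tubule was low by comparison. S1/S2-like cells, the early segments that reabsorb glucose and amino acids, held 118, 133, 9.22 and 47.8 CPM. S3-like cells, named for the straight segment, held 21.9, 4.31, 1.73 and 9.59 CPM. Together these classes made up 34.8, 39.2, 45.8 and 35.4% of the cells and held 4.20, 4.55, 0.423 and 1.604% of the Mt1 UMIs. Both classes lay, in each library, below the level of barcodes with at least 200 but fewer than 1000 genes, which were not kept and held 380, 219, 116 and 169 CPM. These barcodes had 70.4, 71.0, 83.3 and 78.2% mitochondrial counts. Barcodes with fewer than 200 genes, with 95.1, 97.8, 93.5 and 97.2% mitochondrial counts, held 34.6, 0.239, 0 and 0 CPM. That was below S1/S2-like cells in each library and above S3-like cells in young controls only. The share of background RNA in the proximal levels was not tested.

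The remaining classes lay above S3-like cells and below distal convoluted tubule-like and thick ascending limb-like cells. Mt1 in type B intercalated cell-like cells, which secrete bicarbonate, was 790, 1226, 736 and 758 CPM, and in the acid-secreting type A intercalated cell-like cells 583, 996, 295 and 763 CPM. Principal cell-like cells, the water-reabsorbing cells of the collecting duct, held 222, 297, 638 and 629 CPM. Podocyte-like cells, the filter cells of the glomerulus, held 257, 292, 1751 and 2130 CPM, so that both aged libraries stood far above both young ones and above connecting tubule-like cells of the same libraries. Macrophage or myeloid cell-like cells held 400, 521, 380 and 252 CPM, and mesangial or mural cell-like cells 150, 183, 195 and 97.6 CPM. Endothelium was low, in the young libraries below S1/S2-like cells, at 93.2, 71.6, 61.4 and 51.9 CPM in glomerular endothelial cell-like cells and 108, 37.2, 52.9 and 85.6 CPM in other endothelial cell-like cells. Among the 13 classes ranked by Mt1, the 95% intervals of 3, 1, 1 and 3 pairs of neighbours overlapped. Podocyte-like cells took place 7 and 8 in the young libraries and place 3 in both aged ones.

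**Figure D1:**
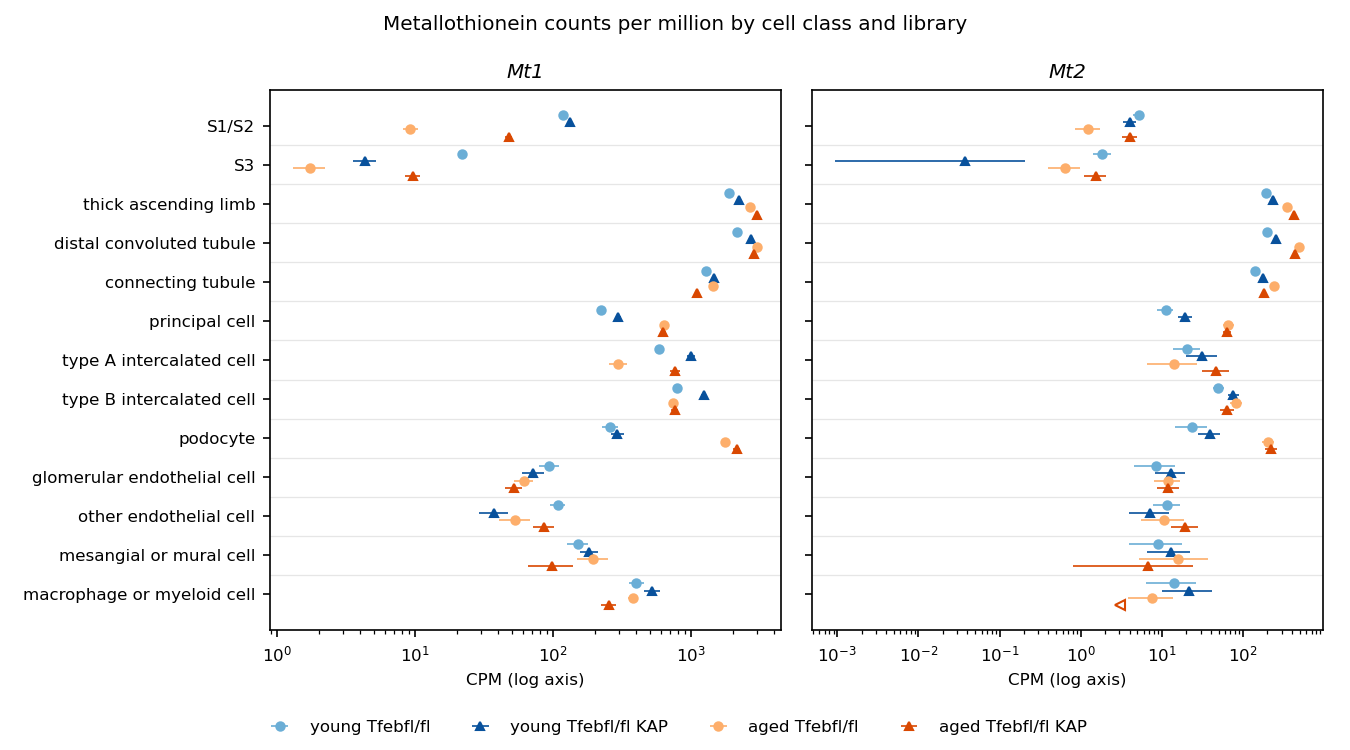
Mt1 (left) and Mt2 (right) in CPM on log axes, by cell class (vertical axis) and library, with exact 95% intervals of counting error; the open arrow marks the upper bound of 3 counts where 0 were found. S3-like points of Mt1 lie lowest in each library, distal convoluted tubule-like and thick ascending limb-like points highest, and aged podocyte-like cells reach 1751 and 2130 CPM against 257 and 292 CPM in young ones.

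Over all kept cells Mt1 was at 708, 784, 696 and 822 CPM, so that the aged libraries as a whole stood close to the young ones. Within classes the aged libraries moved in both directions. In S1/S2-like cells Mt1 gave 3625 UMIs in the young and 244 in the aged Tfeb fl/fl library (log2 ratio -3.68, 95% interval -3.88 to -3.50), 12.8-fold lower. In the deposited counts this ratio was the 7th lowest of the 6909 genes evaluated in that class. Mt1 was chosen by this age difference, so nothing is read from that place. In KAP mice the same class went from 4205 to 1122 UMIs (log2 ratio -1.47, -1.57 to -1.38), the 22nd lowest of 6863 genes. A gene was evaluated in a class where its mean over both libraries was at least 10 CPM. The make-up of S1/S2-like cells, 2049, 1937, 1338 and 1211 in number, differed as well. Their marker Slc5a2 was at 661, 839, 291 and 384 CPM. A cluster with Mt1 at 132, 166, 7.16 and 75.5 CPM held 424, 401, 150 and 97 of the cells. Another, with Mt1 at 83.4, 42.8, 9.62 and 29.4 CPM, held 242, 226, 346 and 272. The part of this make-up in the class ratios was not tested.

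S3-like cells were lower with age in the deposited counts of Tfeb fl/fl mice. Mt1 there gave 703 UMIs in the young and 57 in the aged Tfeb fl/fl library (log2 ratio -3.67, -4.08 to -3.28). The class passed the minimum of 10 CPM through the young library alone, and the KAP pair, with 116 and 277 UMIs, did not pass it, so that no contrast between the genotypes is read from it. The young KAP library was thus already low, at 4.31 CPM.

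Outside the proximal tubule the ratios went both ways. Podocyte-like cells were higher in both genotypes, from 218 to 1089 UMIs in Tfeb fl/fl mice (log2 ratio 2.77, 2.56 to 2.99) and from 330 to 1247 UMIs in KAP mice (2.87, 2.69 to 3.05). Principal cell-like cells were higher as well, by 1.53 (1.43 to 1.63) and 1.08 (0.996 to 1.17) on the log2 scale. Both directions were therefore found within 1 library pair, and in both genotypes. Thick ascending limb-like cells gave 0.51 (0.49 to 0.54) and 0.45 (0.43 to 0.47), and distal convoluted tubule-like cells 0.47 (0.44 to 0.50) and 0.09 (0.06 to 0.11). Connecting tubule-like cells were at 0.18 (0.14 to 0.21) and -0.41 (-0.44 to -0.37).

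The classes that did share a lower level beyond the proximal tubule did so in 1 genotype or by less than 2-fold. Other endothelial cell-like cells were lower in Tfeb fl/fl mice (log2 ratio -1.03, -1.46 to -0.61) and higher in KAP mice (1.20, 0.78 to 1.64). Its clusters did not move together in KAP mice, where the largest was at -0.55 (-1.31 to 0.18) and the others at 2.37 and 2.10. Connecting tubule markers in this class summed to 430, 70.9, 36.8 and 29.2 CPM and thick ascending limb markers to 446, 429, 121 and 281 CPM. Distal convoluted tubule markers summed to 89.6, 31.5, 24.2 and 119 CPM, and the part of these markers was not tested. Macrophage or myeloid cell-like cells were lower in KAP mice (-1.05, -1.32 to -0.78) and near even in Tfeb fl/fl mice (-0.08, -0.29 to 0.14). Glomerular endothelial cell-like cells were at -0.60 (-0.94 to -0.26) and -0.46 (-0.79 to -0.13). Type A intercalated cell-like cells were at -0.98 (-1.22 to -0.75) and -0.38 (-0.55 to -0.22), and type B at -0.10 and -0.69. In type A intercalated cell-like cells of Tfeb fl/fl mice the summed markers of the classes rich in Mt1 were lower with age as well, from 763 to 101 CPM for the thick ascending limb, from 2626 to 989 CPM for the connecting tubule and from 213 to 103 CPM for the distal convoluted tubule, and their part was not tested. Mesangial or mural cell-like cells were at 0.38 (-0.09 to 0.83) and -0.91 (-1.53 to -0.33), from as few as 35 and 46 aged cells. Thick ascending limb markers in them went from 415 to 1383 CPM in Tfeb fl/fl and from 577 to 50.5 CPM in KAP mice, and their part was not tested.

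In all, Mt1 was at least 2-fold lower with age in 3 of 13 classes, at least 2-fold higher in 2 and between in 8 in Tfeb fl/fl mice. Over all 101723 pairs of gene and class evaluated in that comparison, 1.96% were at least 2-fold lower and 4.09% at least 2-fold higher. In KAP mice Mt1 was lower in 2 of 12 classes, higher in 3 and between in 7, where 2.51% of all pairs were lower and 3.34% higher. Since this age difference chose the gene, nothing is read from these counts. In the deposited counts the intervals lay below 0 in 6 classes and above 0 in 5 in Tfeb fl/fl mice, and below 0 in 7 and above 0 in 5 in KAP mice.

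**Figure D2:**
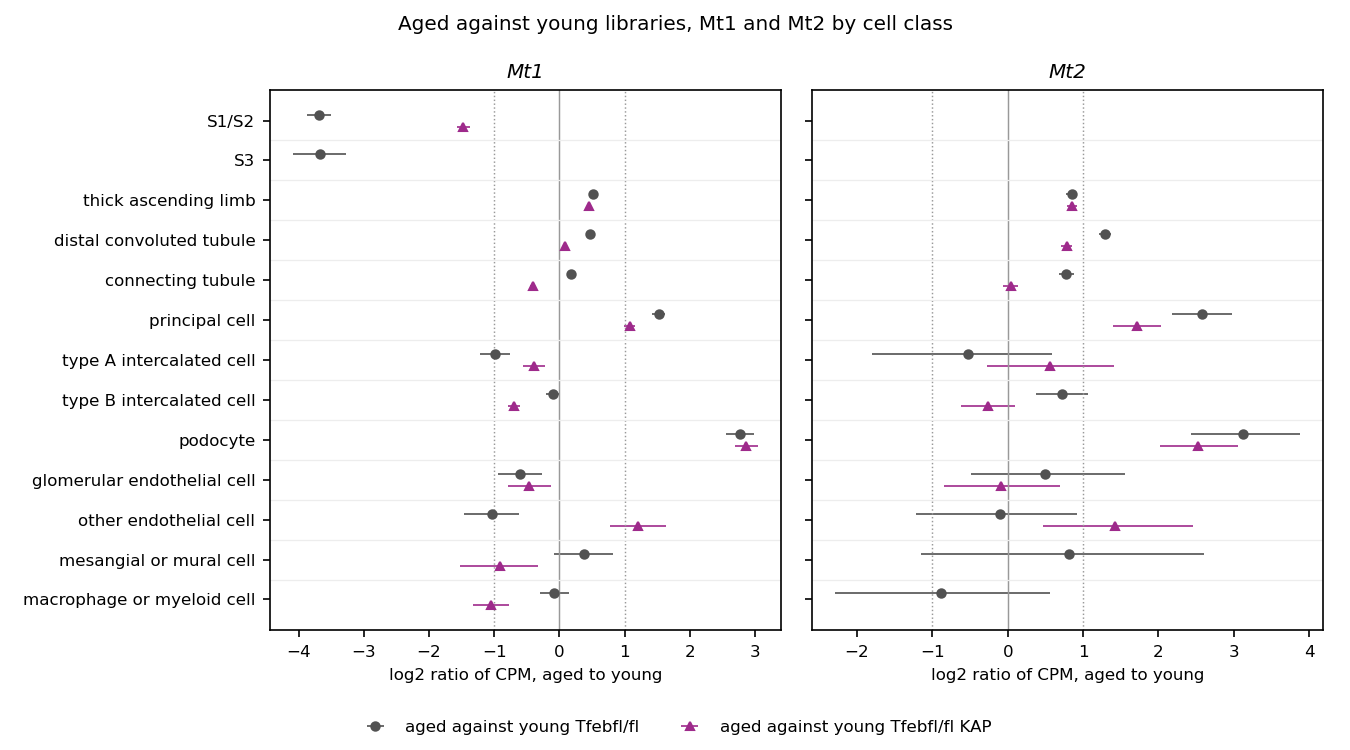
Log2 ratio of CPM, aged to young, of Mt1 (left) and Mt2 (right) by cell class, for Tfeb fl/fl mice (circles) and KAP mice (triangles), with 95% intervals of counting error and dotted lines at 2-fold; classes under a mean of 10 CPM are left out. Mt1 of S1/S2-like cells lies at -3.68 and -1.47, while podocyte-like cells lie at 2.77 and 2.87.

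The clusters from which the classes were built were compared as well. The minimum of 10 CPM was not asked of clusters, and a count of 0 was set to a bound of 3 counts. In Tfeb fl/fl mice 32 clusters could be compared for Mt1, 4 of them with a count of 0 in 1 library. Of the 32, 17 were lower with age, 11 of them at least 2-fold, and the median log2 ratio was -0.16. All 5 S1/S2-like clusters and all 3 S3-like clusters were among those at least 2-fold lower, and all 4 thick ascending limb-like clusters were higher, by 0.23 to 1.22. Of the 5 S1/S2-like clusters, 2 went from 43.0 and 145 CPM to 0, so that the size of their ratios rests on a bound. The 2 connecting tubule-like clusters went apart, at 0.38 and -0.21. In KAP mice 17 of 31 clusters were lower, 5 of them at least 2-fold, and 2 of the 31 had a count of 0 in 1 library. Of the 4 thick ascending limb-like clusters 1 was lower there, at -0.09. The 5 S1/S2-like clusters were all lower in KAP mice, 3 of them at least 2-fold, and the 2 S3-like clusters compared were higher. Of those 3, 1 stood at only 1.43 CPM in the young and 0 in the aged library, and another went from 225 to 0.35 CPM. Of those 2, 1 stood at 0 and 0.60 CPM, so that its direction rests on a bound. In Tfeb fl/fl mice the 3 S3-like clusters went from 14.1 to 2.01, from 18.0 to 0 and from 72.5 to 3.62 CPM. The clusters divide the same cells of the same libraries and are not replicates. The age difference chose the gene, and no share over all genes is given for clusters. Nothing is therefore read from these counts of clusters.

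The background correction of proximal Mt1 differed between the libraries. Mt1 had been set to 0 by it in 15.2, 51.8, 70.3 and 68.5% of S1/S2-like cells and in 29.2, 82.4, 79.7 and 81.1% of S3-like cells, but in at most 1.15% of thick ascending limb-like cells. The young Tfeb fl/fl library was thus corrected least. With 1 UMI put back for each such entry, which is the least that each can have held, Mt1 in S1/S2-like cells was 129, 164, 44.8 and 83.0 CPM, and the log2 ratios with age were -1.52 (-1.62 to -1.43) in Tfeb fl/fl and -0.98 (-1.06 to -0.91) in KAP mice. In S3-like cells the same step gave 35.1, 39.7, 32.5 and 40.6 CPM and ratios of -0.11 (-0.23 to 0.01) in Tfeb fl/fl and 0.03 (-0.09 to 0.15) in KAP mice. By this step the S3-like level of aged Tfeb fl/fl mice rose from 1.73 to 32.5 CPM, so that it was mostly UMIs put back. Those UMIs have a set size and enter the intervals as if counted, and entries left above 0 had none put back. Whether aged S3-like cells were lower cannot be decided from these levels. The age difference of S1/S2-like cells was smaller than in the deposited counts. Their level in aged Tfeb fl/fl mice went from 9.22 to 44.8 CPM, so that it too was mostly UMIs put back. The counts before correction were not used here, so an entry may have held more than 1 UMI. The size and the direction of the age difference before correction are therefore not known.

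**Figure D3:**
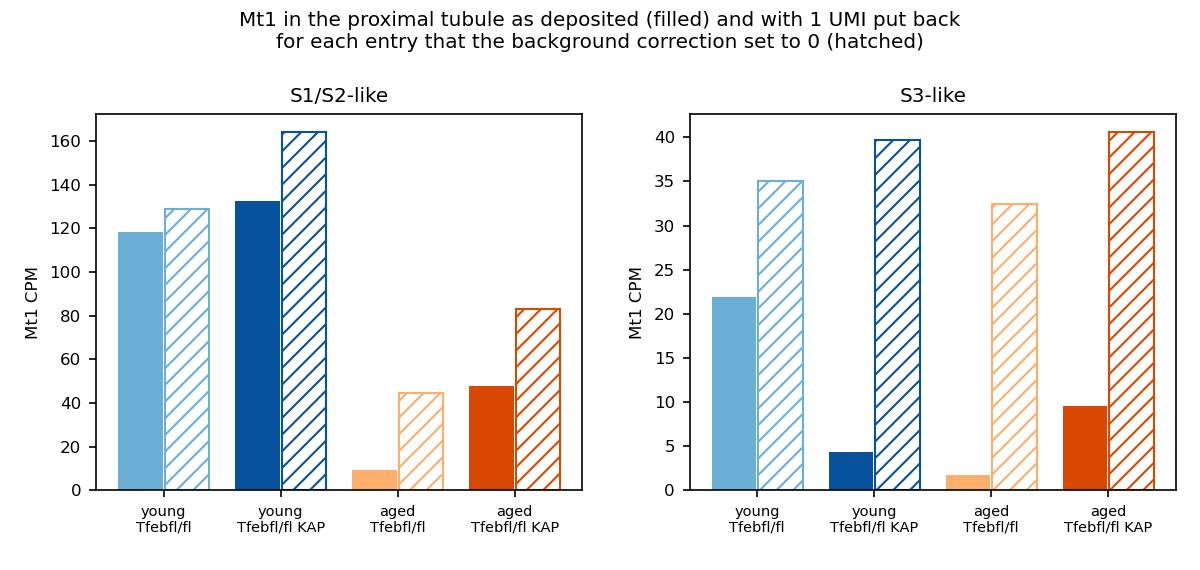
Mt1 in CPM (vertical axis, from 0) in S1/S2-like (left) and S3-like cells (right) of the 4 libraries, as deposited (filled bars) and with 1 UMI put back for each entry set to 0 by the background correction (hatched bars). Hatched bars of S1/S2-like cells keep the aged libraries lower (44.8 and 83.0 against 129 and 164 CPM), while those of S3-like cells stand between 32.5 and 40.6 CPM. An entry may have held more than 1 UMI, so the levels before correction are not known.

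Podocyte-like cells behaved otherwise under the same step. Mt1 had been set to 0 in 3.77, 27.3, 2.08 and 6.76% of them, and with those entries put back it stood at 262, 326, 1753 and 2138 CPM. The log2 ratios with age were then 2.74 and 2.72. Principal cell-like cells stood at 228, 319, 653 and 641 CPM with ratios of 1.52 and 1.01. Other endothelial cell-like cells, at least 2-fold lower in the deposited counts of Tfeb fl/fl mice, went to -0.35 (-0.69 to -0.02) there and to 0.49 (0.21 to 0.76) in KAP mice. Glomerular endothelial cell-like cells went to -0.03 (-0.32 to 0.25) in Tfeb fl/fl and -0.25 (-0.47 to -0.04) in KAP mice. Type A intercalated cell-like cells stayed below 0, at -0.89 (-1.12 to -0.67) and -0.37 (-0.54 to -0.21).

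Markers of the 3 distal classes rich in Mt1 were summed in podocyte-like cells too, from the corrected counts. The summed level of the 7 thick ascending limb markers in them was 543, 556, 344 and 282 CPM with 1, 1, 2 and 2 of the markers at 0, and that of the 5 distal convoluted tubule markers 177, 31.0, 6.43 and 10.2 CPM with 0, 0, 2 and 3 at 0. The 5 connecting tubule markers summed to 395, 13.3, 6.43 and 1.71 CPM. In glomerular endothelial cell-like cells these 5 summed to 581, 33.0, 18.2 and 22.8 CPM, so that such a fall was not particular to podocyte-like cells. The part of the distal markers and of their correction in the Mt1 of podocyte-like cells was not tested. Markers of type A intercalated cells, 6 in all, were higher in the aged libraries in podocyte-like cells, at 37.7, 31.8, 64.3 and 97.3 CPM, with 4, 3, 4 and 4 at 0, and their part was not tested. The 7 podocyte markers summed to 19535, 18986, 27846 and 27127 CPM, none at 0. Podocyte-like cells numbered 106, 139, 48 and 74, with a median of 5694, 6275, 10378 and 6780 UMIs. In principal cell-like cells the thick ascending limb markers summed to 883, 631, 692 and 870 CPM, and the connecting tubule markers, of a class rich in Mt1, to 1388, 1206, 3094 and 2760 CPM. The part of that class in the higher Mt1 of aged principal cell-like cells was not tested. Also, in S1/S2-like cells the 7 genes listed as markers of injured proximal tubule summed to 1499, 1149, 603 and 391 CPM. They are not particular to that state, with 4106, 3434, 4190 and 4025 CPM in thick ascending limb-like cells. In connecting tubule-like cells they summed to 9299, 7646, 5968 and 5488 CPM. Connecting tubule markers in S1/S2-like cells summed to 144, 6.46, 3.40 and 5.15 CPM, and thick ascending limb markers to 461, 426, 358 and 339 CPM. Distal convoluted tubule markers summed to 45.4, 28.4, 25.5 and 24.4 CPM. In S3-like cells these 3 lists summed to 81.5, 3.56, 3.97 and 2.04 CPM, to 443, 427, 323 and 314 CPM and to 31.3, 17.6, 22.8 and 32.1 CPM. The part of all these markers in the lower proximal Mt1 was not tested either.

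The distribution of Mt1 over cells was read after each cell had been thinned to 2000 UMIs. A UMI of Mt1 was then found in 21.5, 13.7, 1.95 and 6.86% of S1/S2-like cells, and in 52.1 and 29.3% of the young ones before thinning. In podocyte-like cells the thinned share was 26.7, 30.4, 87.5 and 86.3%, and 5 or more UMIs were found in 1.90, 1.45, 20.8 and 31.5% of cells. Most aged podocyte-like cells thus carried the transcript, rather than a few. Principal cell-like cells had 26.3, 26.5, 39.5 and 42.6% with a UMI and 0.699, 1.10, 9.52 and 7.22% with 5 or more. Thick ascending limb-like cells had 88.0, 87.2, 94.99 and 96.1% with a UMI.

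**Figure D4:**
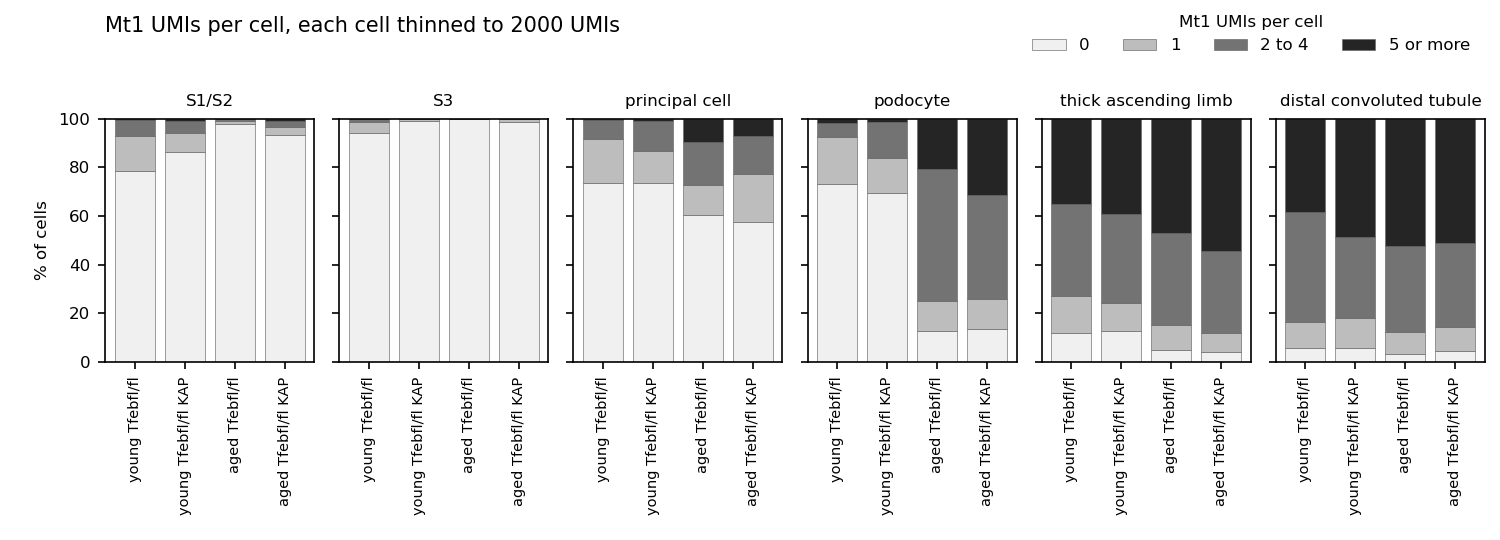
Share of cells (vertical axis, %) with 0, 1, 2 to 4, and 5 or more Mt1 UMIs after each cell was thinned to 2000 UMIs, in 6 classes and the 4 libraries. In podocyte-like cells the share with 0 drops from 73.3 and 69.6% in the young to 12.5 and 13.7% in the aged libraries, while in S1/S2-like cells it goes from 78.5 and 86.3% to 98.1 and 93.1%.

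The deposited Mt1 counts of aged S1/S2-like cells were held by few cells, after the correction had set Mt1 to 0 in 70.3 and 68.5% of them. The 5% of cells with most Mt1 held 36.0, 60.1, 99.2 and 84.8% of the UMIs of the class. Cells with more than 9 UMIs of Mt1 numbered 64 of 2049, 117 of 1937, 4 of 1338 and 30 of 1211.

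Mt2 followed Mt1 from class to class at a lower count. In distal convoluted tubule-like cells it was at 198, 256, 486 and 440 CPM, in thick ascending limb-like cells at 191, 237, 344 and 429 CPM and in connecting tubule-like cells at 141, 178, 242 and 183 CPM. It stood in S1/S2-like cells at 5.16, 4.03, 1.25 and 4.04 CPM and in S3-like cells at 1.84, 0.0371, 0.636 and 1.52 CPM, under the minimum for a ratio. With 1 UMI put back for each corrected entry, S1/S2-like cells held 6.50, 12.5, 9.71 and 15.2 CPM. S3-like cells then held 3.00, 7.35, 8.88 and 11.5 CPM. The aged Tfeb fl/fl library thus stood above the young one in both classes, but mostly by UMIs put back, so that no direction is read for proximal Mt2. Of the 11407 genes compared by their level over 60 pairs of class and library, Mt2 was the most like Mt1 (Pearson r = 0.896 of log2(CPM + 10)). The next were Bcat2 (0.826), the mitochondrial enzyme that starts the breakdown of branched-chain amino acids, Mitf (0.814), a transcription factor related to TFEB, Slc5a3 (0.810), which takes up myo-inositol, and Mrps25 (0.807), of the mitochondrial ribosome. Pairs from 1 library share its depth and its correction, and pairs from 1 class their cell type. Within each library, over 13 classes, r of Mt1 and Mt2 was 0.922, 0.898, 0.909 and 0.906.

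The classes in which Mt1 was at least 2-fold higher with age in both genotypes were higher in Mt2 as well. In podocyte-like cells it went from 23.6 to 204 CPM in Tfeb fl/fl mice (log2 ratio 3.12, 2.43 to 3.87) and from 38.9 to 224 CPM in KAP mice (2.52, 2.02 to 3.05). In principal cell-like cells it went from 11.1 to 66.0 CPM (2.57, 2.18 to 2.97) and from 19.4 to 63.6 CPM (1.71, 1.40 to 2.03). Both aged libraries stood above both young ones in each of these classes. Distal convoluted tubule-like cells gave 1.29 (1.21 to 1.37) and 0.78 (0.70 to 0.86), and thick ascending limb-like cells 0.85 in both genotypes. Connecting tubule-like cells gave 0.78 and 0.04. Mt2 and Mt1 went apart in type B intercalated cell-like cells of Tfeb fl/fl mice, where Mt2 was at 0.72 (0.38 to 1.07) and Mt1 at -0.10.

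Mt2 was at least 2-fold higher with age in 3 of 11 classes and at least 2-fold lower in 0 in Tfeb fl/fl mice, against 4.09% and 1.96% of all pairs of gene and class. In KAP mice it was higher in 3 and lower in 1 of 10, against 3.34% and 2.51% of all pairs. The class that was lower was macrophage or myeloid cell-like cells, where 9 UMIs were found in the young and 0 in the aged KAP library (14.0, 21.8, 7.57 and 0.00 CPM over the 4 libraries). It passed the minimum of 10 CPM through the young library alone. With 1 UMI put back for each corrected entry its log2 ratio was -1.16 (-2.36 to 0.04). The age ratio of Mt2 was above that of Mt1 in the 3 distal classes of both genotypes. UMIs of Mt1 per UMI of Mt2 were 10.8, 10.5, 6.13 and 6.50 in distal convoluted tubule-like cells of at least 2000 UMIs, 9.74, 9.27, 7.70 and 7.01 in thick ascending limb-like cells and 9.06, 8.14, 5.97 and 5.98 in connecting tubule-like cells. In podocyte-like cells they were 10.8, 7.48, 8.57 and 9.48. These are ratios of tags at the 3′ end, whose capture may differ between the genes.

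The zinc exporter Slc30a1 had another pattern. It was highest in S3-like cells of the young libraries and in glomerular endothelial cell-like cells of the aged ones, and its level moved against that of Mt1 over classes, with r of -0.70, -0.73, -0.63 and -0.49 within the 4 libraries. By likeness to Mt1 it took place 10880 of 11407. In S3-like cells it was at 47.3, 39.7, 32.6 and 33.3 CPM, lower with age by 0.54 (0.42 to 0.65 lower) on the log2 scale in Tfeb fl/fl and with a ratio of -0.25 (-0.38 to -0.12) in KAP mice. In glomerular endothelial cell-like cells it was at 35.0, 32.4, 57.5 and 50.8 CPM, with ratios of 0.72 (0.26 to 1.20) and 0.65 (0.22 to 1.10). Both aged libraries thus lay below both young ones in the first class and above them in the second. In S3-like cells of KAP mice the direction turned without integration (0.24) and with cells thinned to 2000 UMIs (0.19).

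In S1/S2-like cells, where the deposited Mt1 was lower with age, Slc30a1 was at 27.6, 24.8, 23.5 and 26.8 CPM, with ratios of -0.23 (-0.38 to -0.08) and 0.11. With the corrected entries put back Slc30a1 was at 27.8, 26.4, 24.3 and 27.7 CPM, while the age ratios of Mt1 became -1.52 and -0.98. The 2 genes were thus corrected to a different extent, and its part in their difference was not tested. Thick ascending limb-like cells held 22.4, 18.6, 22.4 and 19.8 CPM, distal convoluted tubule-like cells 15.6, 14.4, 16.9 and 16.3 CPM and principal cell-like cells 16.9, 18.6, 24.2 and 21.1 CPM. Podocyte-like cells held 14.1, 11.5, 16.1 and 34.2 CPM, and the ratio of 1.57 (0.49 to 2.70) in KAP mice was the single class of 13 that passed 2-fold there. In Tfeb fl/fl mice it was type A intercalated cell-like cells (1.20, 0.05 to 2.36). Of all pairs of gene and class, 3.34% were at least 2-fold higher with age in KAP and 4.09% in Tfeb fl/fl mice. Nothing is read from a single class beside these shares. Of the 12 pairs of neighbours in the order of classes, 11, 12, 12 and 11 had overlapping intervals, so that the order of most classes could not be told at this depth.

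Mtf1 was expressed at a low level, between 6.39 and 41.0 CPM over the 13 classes and 4 libraries. All 12 pairs of neighbours in each library overlapped, while the ends of the order did not all do so. Young Tfeb fl/fl mice had 24.8 CPM (21.3 to 28.7) in principal cell-like and 11.5 CPM (10.4 to 12.8) in S3-like cells, and aged KAP mice 41.0 CPM (26.3 to 61.0) in podocyte-like and 13.1 CPM (11.8 to 14.5) in S3-like cells. In S1/S2-like cells it was at 12.1, 13.1, 13.0 and 14.4 CPM and in S3-like cells at 11.5, 12.8, 10.8 and 13.1 CPM, which gives no lower level with age in the class in which the deposited Mt1 was lowest against the young library. Distal convoluted tubule-like cells went from 14.0 to 22.6 CPM in Tfeb fl/fl mice (log2 ratio 0.69, 0.37 to 1.01) and from 14.0 to 19.8 CPM in KAP mice (0.50, 0.16 to 0.85). Connecting tubule-like cells gave 0.57 (0.19 to 0.94) and 0.58 (0.23 to 0.92). Its 1 class of 13 past 2-fold with age, mesangial or mural cell-like cells of Tfeb fl/fl mice, rested on 2 UMIs in the aged library (-1.597, -4.75 to 0.48). Of all pairs of gene and class, 1.96% were at least 2-fold lower in that comparison.

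**Figure D5:**
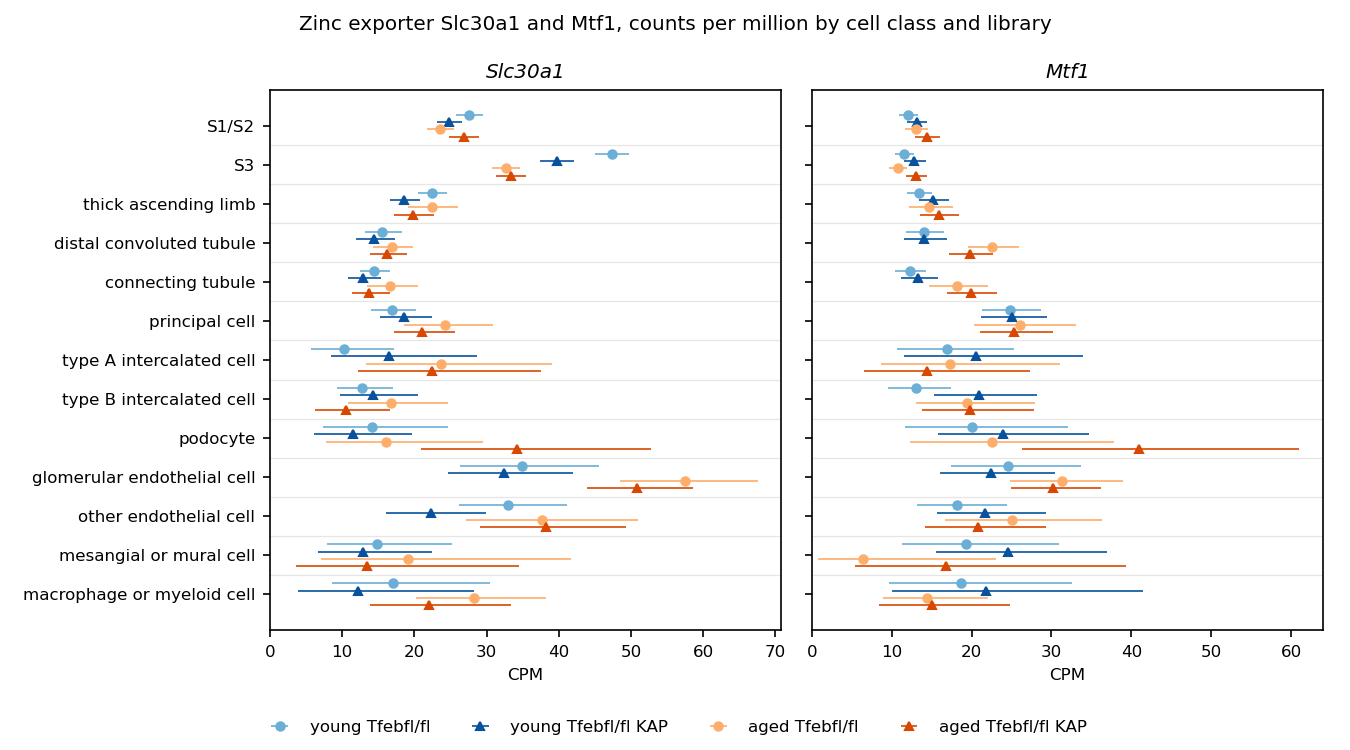
Slc30a1 (left) and Mtf1 (right) in CPM (horizontal axes, from 0) by cell class and library, with exact 95% intervals of counting error. Slc30a1 of S3-like cells lies at 47.3 and 39.7 CPM in the young and 32.6 and 33.3 CPM in the aged libraries, and the points of Mtf1 overlap in most classes.

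KAP mice were compared with their controls at each age. In young mice, where thin limb-like and proliferating cell-like cells were also numerous enough, 1.34% of the 116084 pairs of gene and class were at least 2-fold lower in KAP mice and 1.5% higher. Mt1 was lower in 2 of 15 classes and higher in 1. It was lower in S3-like cells (21.9 against 4.31 CPM, log2 ratio -2.35, -2.64 to -2.06) and in other endothelial cell-like cells (-1.53, from 108 to 37.2 CPM). S3-like cells passed the minimum of 10 CPM through the young Tfeb fl/fl library alone. It was higher in thin limb-like cells (388 against 1096 CPM, 1.499, 1.38 to 1.61), as was Mt2 (34.6 against 98.8 CPM, 1.51), the 1 class of 12 in which Mt2 passed 2-fold. With the corrected entries put back the ratio of other endothelial cell-like cells was -0.12 (-0.38 to 0.14), not lower beyond counting error. That of S3-like cells was 0.18 (0.06 to 0.30), from 35.1 and 39.7 CPM. The level in KAP mice was then mostly UMIs put back, so that nothing is read from it. For S1/S2-like cells the ratio was 0.16 (0.10 to 0.23) as deposited. Between the 2 libraries of young mice, corrected to a different extent, the genotype and the correction cannot be told apart.

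In aged mice 2.45% of 102860 pairs were at least 2-fold lower in KAP mice and 1.74% higher. Mt1 was at least 2-fold higher in 2 of 12 classes and lower in 0. Mt1 of S1/S2-like cells was at 9.22 and 47.8 CPM (log2 ratio 2.37, 2.17 to 2.58), and at 0.89 (0.79 to 0.997) with the corrected entries put back. Both libraries had Mt1 set to 0 in a like share of these cells, which does not give the number of UMIs removed. The part of the correction was not tested, and it cannot be told apart from the genotype. In type A intercalated cell-like cells it was at 295 and 763 CPM (1.37), from 49 and 46 cells, with 101 and 382 CPM of thick ascending limb markers, 989 and 2884 CPM of connecting tubule markers and 103 and 539 CPM of distal convoluted tubule markers, whose part was not tested. Podocyte-like cells gave 0.28, principal cell-like cells -0.02 and thick ascending limb-like cells 0.18. Mt2 was at least 2-fold lower in 1 class and higher in 1 of 10, with 2 and 29 UMIs respectively in the aged KAP library. Slc30a1 and Mtf1 each passed 2-fold in 1 of 13 classes in aged mice and in 0 of 15 in young mice.

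Genes of zinc handling and of the signals known to act on metallothioneins were described as lists in the proximal classes. Of all genes evaluated with age in S1/S2-like cells, 1.23% were at least 2-fold lower and 1.51% higher in Tfeb fl/fl mice, and 1.11% and 1.84% in KAP mice. For S3-like cells the shares were 0.687% and 1.12% in Tfeb fl/fl and 0.585% and 0.824% in KAP mice. Of the other zinc exporters of the Slc30 family, 0 of 4 evaluated passed 2-fold with age in S1/S2-like cells of Tfeb fl/fl mice, and the median of the 4 ratios was 0.23 (all genes of the class, 0.05). Slc30a5, which loads zinc into the secretory pathway, was at 0.51 (0.39 to 0.64) and Slc30a2, which fills vesicles with zinc, at -0.55 (-0.69 to -0.41). Of the zinc importers of the Slc39 family 1 of 7 was lower (1.23% of all genes), Slc39a5, which gave 47.5 CPM in the young and 21.5 CPM in the aged Tfeb fl/fl library (-1.14, -1.28 to -1.002). In KAP mice it went from 56.7 to 20.9 CPM (-1.44, -1.59 to -1.30) and was again the 1 of 7. In S3-like cells Slc39a5 was at -0.24 in Tfeb fl/fl and -1.30 in KAP mice. The other metallothioneins, Mt3 and Mt4, did not reach 10 CPM in the proximal classes. Of the genes of copper and iron handling 0 of 12 passed 2-fold in S1/S2-like cells of Tfeb fl/fl mice. The iron storage chains Ftl1 and Fth1 were at -0.53 and -0.36 there, and the copper and zinc superoxide dismutase Sod1 at 0.72.

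Glucocorticoid-induced genes were followed in the same classes, and the difference between the genotypes was not tested. Of 8 such genes in S1/S2-like cells of Tfeb fl/fl mice, 1 was at least 2-fold lower with age (1.23% of all genes), Sgk1, a kinase that raises sodium transport (76.1 to 36.6 CPM, log2 ratio -1.06), and the median was -0.06. In KAP mice 3 of 9 were at least 2-fold higher (1.84% of all genes) and the median was 0.86, against 0.05 over all genes. Sgk1 went from 46.6 to 133 CPM (1.51, 1.42 to 1.604) and Fkbp5, a chaperone of the glucocorticoid receptor, from 18.2 to 56.3 CPM (1.63, 1.49 to 1.78). In S3-like cells of Tfeb fl/fl mice 2 of 9 were lower (0.687% of all genes), Ddit4, an inhibitor of mTORC1 (-2.56, -2.85 to -2.28), and Cebpd, a transcription factor (-1.21). In KAP mice 1 of 10 was higher there.

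Targets of NRF2, the factor of the antioxidant response, had a median of 0.31 in S1/S2-like cells of Tfeb fl/fl mice, with 0 of 8 at least 2-fold higher and 1 lower (1.51% and 1.23% of all genes). That gene was Hmox1, which degrades haem (37.3 to 14.8 CPM, -1.33, -1.499 to -1.16), and in KAP mice it was lower by a log2 ratio of -1.87. Of the immediate early and heat shock genes 1 of 11 was higher in S1/S2-like cells of Tfeb fl/fl mice, the chaperone Hspa1b (5.72 to 17.2 CPM, 1.59), which was lower in KAP mice (21.9 to 5.32 CPM, -2.04). In S3-like cells of KAP mice 2 of 11 were lower and the list median was -0.86. In podocyte-like cells, 3 of 12 of these genes were at least 2-fold higher with age in Tfeb fl/fl mice and 9 of 12 lower in KAP mice, against 5.38% and 6.00% of all genes of the class, with medians of 0.47 and -2.27. Their part in the Mt1 and Mt2 levels of this class was not tested.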

How the data were processed

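Per the labels, 4 libraries (10x Genomics, 3′) held 1 condition each. The authors aligned reads to mm10 with Cell Ranger (version 6.0.0), corrected counts for background RNA with SoupX and analysed them in Seurat (version 4.4.0). Deposited were the counts after this correction, as whole UMIs, 125729484 to 194747936 in all per library. Members and lists were chosen with earlier results of these data known. From there, barcodes with at least 1000 genes and at most 50% mitochondrial counts were kept, and 2216 doublets were removed by Scrublet score (scanpy 1.11.5) at the rate expected for each library's size. Of the variable genes, 2000 without the metallothioneins, Slc30a1 and Mtf1 gave 30 principal components, integrated by an own implementation of Harmony and clustered with Leiden (leidenalg 0.10.2) at resolution 1 into 38 clusters. A class name needed 3 markers in at least 10% of a cluster's cells and no other class leading its 10 top genes, and 5 clusters stayed unnamed. Names are rebuilt, so that a difference from the study can come from them.

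Counts were summed by class and library (numpy 2.4.6 and scipy 1.17.1 under Python 3.11.15) and given as CPM with exact Poisson intervals and as log2 ratios with the exact 95% interval of both counts. Shares of cells have exact binomial bounds in the tables. Classes with at least 20 cells in both libraries and a mean of at least 10 CPM were evaluated, and 2-fold was the size named. A count of 0 was set to 3 counts as a bound. No test was made. Named were the 4 members, up to 4 genes a list with the largest ratio in the proximal classes, and the 5 genes most like Mt1. The chaperones and kinases named from lists follow that rule. Tested on simulated data for S1/S2-like cells of aged against young Tfeb fl/fl mice (6883 genes, 200 changed by a log2 size of 2), the ratios had the right sign in 100% of changed genes, and 95.4% of intervals held the true value. The simulated counts carried counting error alone, as the intervals assume. This checks the calculation and says nothing of differences between animals, libraries or background corrections. The 12 alternatives planned and 2 added after seeing the data are given at the end. Sequences are RefSeq windows of GRCm38.p6.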

Additional observations from a re-analysis of the deposited data

Results flagged for a closer look

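The differences below are between 1 library and 1 library, and that they differ was not tested. They stand out because the same contrast went one way in one genotype or age and the other way in the other, with both counting intervals off 0. With age, Mt1 in connecting tubule-like cells had a log2 ratio of 0.18 in Tfeb fl/fl and -0.41 in KAP mice. In Tfeb fl/fl mice that ratio was -0.0833 at resolution 2.0 and -0.0612 with median-of-ratios scaling, so the opposite signs did not hold there. In other endothelial cell-like cells Mt1 had -1.03 and 1.20.

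Between KAP mice and controls, Mt1 in distal convoluted tubule-like cells had a log2 ratio of 0.32 in young and -0.0594 in aged mice, in connecting tubule-like cells 0.18 and -0.40, in other endothelial cell-like cells -1.53 and 0.69, and in macrophage or myeloid cell-like cells 0.38 and -0.59. Mt2 had 0.37 and -0.14 in distal convoluted tubule-like cells and 0.33 and -0.41 in connecting tubule-like cells. Slc30a1 in S1/S2-like cells had -0.15 and 0.19. With median-of-ratios scaling Mt1 in distal convoluted tubule-like cells of aged mice was at 0.0035. With 1 UMI put back for each entry that the background correction had set to 0, Mt1 in other endothelial cell-like cells had -0.12 (-0.38 to 0.14) in young mice and 0.72 in aged mice, so that the opposite signs rest on the corrected counts.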

How the results depend on the processing

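No paired analysis was possible because each condition is 1 library and no replicate numbers link them. The alternatives that put back corrected entries and that leave out clusters of deep cells were chosen after seeing the data. Over all 14 alternatives the age ratio of Mt1 in S1/S2-like cells kept its direction, from -3.73 to -1.52 in Tfeb fl/fl and from -1.54 to -0.54 in KAP mice, and podocyte-like cells stayed at or above 2.07 and 2.33. All alternatives start from the corrected counts, and 1 UMI put back is the least an entry can have held. The direction in S1/S2-like cells before correction is therefore not known. In principal cell-like cells the age ratio of Mt1 stayed above 0, from 0.95 to 1.58 and from 0.40 to 1.09, but was not at least 2-fold in every alternative. In S3-like cells of Tfeb fl/fl mice it ran from -5.54 to -0.11 where it could be evaluated, which was not so at resolution 0.5, without integration and by own markers. The intervals cover counting error only, and classes of 35 to 49 cells carry the least.

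As reported, Mt1 was at least 2-fold lower with age in 3 classes in Tfeb fl/fl and 2 in KAP mice and 2-fold different by genotype in 3 in young and 2 in aged mice, and Mt2 in 0, 1, 1 and 2 classes in the same order. With 1 UMI put back for each corrected entry, the counts of Mt1 were 1, 0, 1 and 1, and those of Mt2 by genotype 3 and 1. With cells thinned to 2000 UMIs, Mt1 was lower in 1 class in KAP mice and different in 5 in young mice, and Mt2 was lower in 0 in KAP mice and different in 3 and 1. Without integration Mt1 was lower in 1 and 0 classes. Without removal of doublets Mt1 was lower in 5 in Tfeb fl/fl mice, and Mt2 lower in 1 and different in 5 in young mice. Mt1 was lower in 1 class in KAP mice at resolution 0.5, at most 20% mitochondrial counts and with the mean of CPM over cells. In the last 2, Mt2 was different in 1 class in aged mice, and with the mean over cells lower in 0 in KAP mice. With cells classed by their own markers, Mt2 was different in 4 and 4 classes and lower in 2 in KAP mice. With a minimum of 1 CPM it was different in 5 in aged mice and lower in 2 in Tfeb fl/fl mice, and with median-of-ratios scaling lower in 1. The causes were not tested.

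Some log2 ratios changed sign. Between young KAP and young Tfeb fl/fl mice, the Mt1 log2 ratio in S1/S2-like cells was -0.0943 by own markers, -0.20 with the mean over cells and -0.28 with cells thinned. With 1 UMI put back, that in S3-like cells was 0.18 and in glomerular endothelial cell-like cells 0.52. With age in Tfeb fl/fl mice, Mt1 in connecting tubule-like cells was -0.0833 at resolution 2.0 and -0.0612 with median-of-ratios scaling, in type A intercalated cell-like cells 0.69 by own markers, and in type B intercalated cell-like cells 0.40 by own markers and 0.26 thinned. With age in KAP mice, Mt1 in distal convoluted tubule-like cells was -0.0832 with the stricter mitochondrial limit and -0.10 with median-of-ratios scaling, in mesangial or mural cell-like cells 1.12 without removal of doublets, and in type A intercalated cell-like cells 0.10 with each of these filters. Between aged KAP and aged Tfeb fl/fl mice, Mt1 was 0.0035 in distal convoluted tubule-like cells with median-of-ratios scaling, 0.81 (no removal of doublets) and 0.0646 (own markers) in mesangial or mural cell-like cells, and -0.35 in type A intercalated cell-like cells by own markers, where Mt2 was -0.68. Slc30a1 with age was 0.24 without integration and 0.19 thinned in S3-like cells of KAP mice, and -0.26 thinned in principal cell-like cells of Tfeb fl/fl mice.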
